A study of Mus musculus with 15 samples.

Results

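Transcripts of 10 genes that mark macrophages were followed across bone marrow endothelial cell (BMEC) cultures. They are Adgre1, C1qa, C1qb, C1qc, Csf1r, Cd68, Fcer1g, Tyrobp, Lyz2 and Ptprc, chosen by gene symbol from the deposited count table, in which each of the 10 has a single row among 44674. All 10 were among the 19401 genes that passed the filter on low counts. The study grew whole bone marrow (WBM) of Tie2-CreERT2;Rosa26-tdTomato mice in endothelial medium (EGM-2), sorted cells by the reporter and by endomucin (Emcn), and measured total RNA in 15 bulk libraries of 8 conditions.

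P0 Emcn+ and P0 Emcn- BMECs were sorted from the primary culture (passage 0), as cells without CD45 and with tdTomato, and had 2 libraries each. Emcn- BMECs of P1, P2 and P3 had 2 libraries each and those of P4 had 1. Cells of lung cultures, which by the methods were also Emcn-, had 2 libraries. Mesenchymal stromal cells (MSC) had 2 libraries and came from another model, marrow of Osx-Cre;Rosa26-tdTomato mice grown in Mesencult, sorted in the same way for tdTomato without CD45. The 2 P0 populations are also called the Emcn+ sort and the Emcn- sort. All libraries carry the genotype label WT, by the methods the mice were 4 to 6 months old and were used regardless of sex, and the sex and background strain behind a library are not given in the sources used here. The reporter of the endothelial cultures was switched on with tamoxifen through a Cre driven by the promoter of Tek (Tie2), a gene of endothelium that some hematopoietic cells also express. By flow cytometry the paper detected no tdTomato in fresh marrow cells with CD45. In the primary culture it described macrophages as cells with CD45 and without tdTomato. By the labels 1 dish usually came from 1 mouse. Whether the passages of a batch were taken serially from 1 dish, and whether passaged cells were sorted again for CD45, is not given in the sources used here.

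The labels give 4 batches. In the 2 P0 sorts and in lung, replicate 1 was batch d and replicate 2 was batch a. Batch b held the P4 library and replicate 1 of the earlier passages, and batch c held both MSC libraries and replicate 2 of those passages. P0 or lung libraries therefore share no batch with passaged or MSC libraries, and between these 2 sets batch and condition cannot be told apart. Library totals ran from 9914620 to 39718807 counts, and levels are given as counts per 1000000 counts of the library (CPM). A count of 0 allows up to 3 counts, which equal 0.0755 to 0.303 CPM. All intervals and limits of this kind cover counting error only.

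Macrophages are phagocytes that settle in nearly every tissue, and in bone marrow they clear dying cells and expelled erythroblast nuclei. They depend on colony stimulating factor 1, sense antibody-coated and dying material through receptors that signal by short adaptor proteins with an ITAM (immunoreceptor tyrosine-based activation motif), digest it in lysosomes, and are the main producers of C1q, the molecule that starts the classical complement pathway. Ptprc encodes CD45, the surface antigen by which the sort left out blood cells.

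The labelled cell types were checked against 7 endothelial and 6 mesenchymal genes. The endothelial genes summed to 11549 and 9680 CPM in the Emcn+ sort, to 249 and 68.7 CPM in the Emcn- sort and to 44.1 to 69.8 CPM in the 7 passaged libraries. Cdh5 (VE-cadherin), a defining endothelial gene, was at 119 and 6.35 CPM in the Emcn- sort. In the passaged libraries it was at 0.0564 to 2.33 CPM, so by this gene their endothelial label was not borne out. The 7 genes did not move alike. In the edgeR fits described below, 5 of 7 were lower at P1 than in P0 Emcn-, and 1, Cdh5, was called. Tek and Kdr had log2 fold changes of 0.19 and 0.35 there. Against the mean of P1 to P3, 4 of 7 were called higher in MSC and 1, Tek, lower (-2.16). The mesenchymal genes went opposite to the endothelial sums, from 100.1 and 153 CPM in the Emcn+ sort to 9403 and 7563 CPM in the Emcn- sort. The 2 MSC libraries differed from each other, with 7.86 and 156 CPM of Cdh5. Markers of other blood cells were low, since 10 neutrophil genes summed to at most 4.72 CPM, 6 B cell genes to at most 3.90 CPM, 7 T cell genes to at most 2.03 CPM and 7 erythroid genes to at most 0.795 CPM in any library. The sums stayed at or below 9.99 CPM for 5 megakaryocyte genes and 5.02 CPM for 5 genes of mast cells and basophils. The sum of 7 dendritic cell genes ran from 5.00 to 38.2 CPM and was nearly all Zbtb46. This gene was at 37.7 and 35.9 CPM in the Emcn+ sort, and each of the others was at most at 0.525 CPM in any library. In bulk libraries, fewer cells of a type and less RNA per cell cannot be told apart, and this holds for each level given here.

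**Figure D1:**
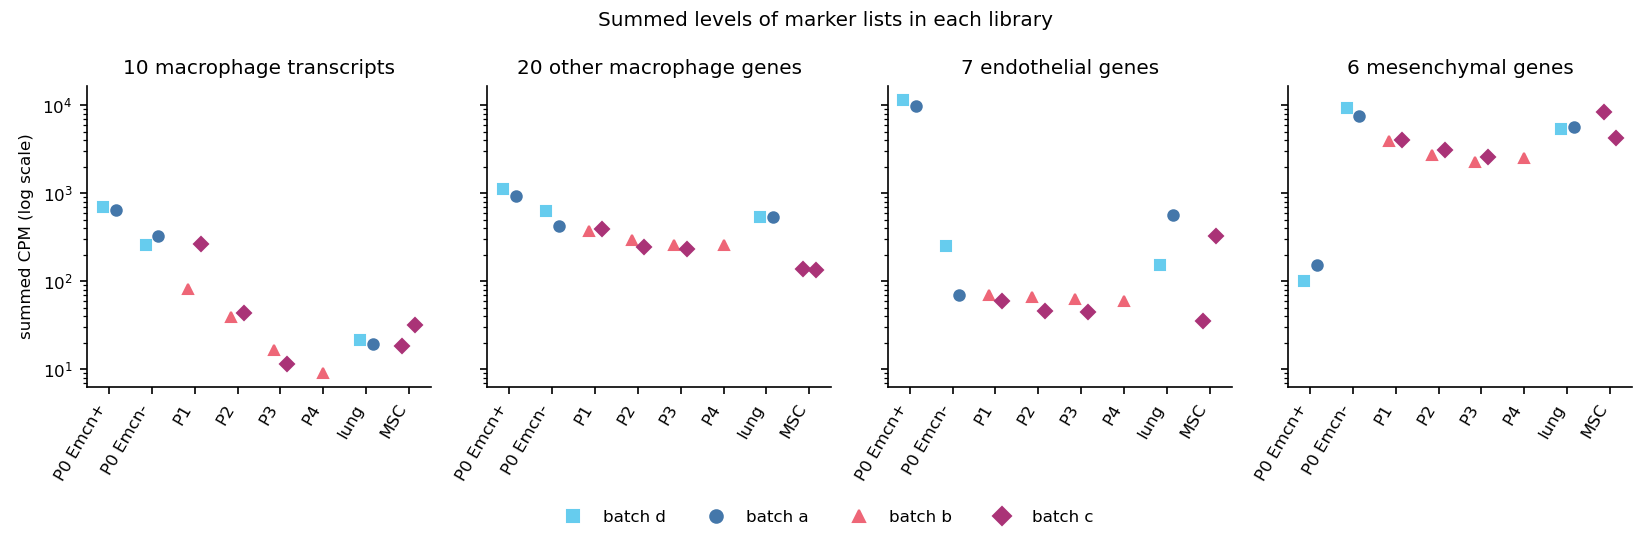
Summed CPM (log scale) of 4 gene lists in each of the 15 libraries, 1 point per library, with shape and colour for the batch. The 10 macrophage transcripts go from 690.1 CPM in the Emcn+ sort to 8.91 CPM at P4, while the endothelial and mesenchymal lists separate P0 Emcn+ from the other conditions.

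Macrophage transcripts were present in every condition and were highest in the P0 Emcn+ sort. Summed over the 10 genes they reached 690.1 and 644 CPM in the Emcn+ sort and 258 and 324 CPM in the Emcn- sort. At P1 the sum was 80.3 CPM in batch b and 263 CPM in batch c, at P2 39.4 and 43.1 CPM, at P3 16.4 and 11.5 CPM, and in the single P4 library 8.91 CPM. Lung cells had 21.5 and 19.2 CPM and MSC 18.3 and 31.9 CPM. The means were 667 ± 32.2 (SD, n = 2) for P0 Emcn+ and 291 ± 46.4 (SD, n = 2) for P0 Emcn- BMECs, and at P1 172 ± 129 (SD, n = 2), where the 2 libraries differed 3.27-fold. Lyz2 alone made up 46.6% to 83.8% of the sum in any library. Without Lyz2 the means were 339 CPM in the Emcn+ sort, 139 CPM in the Emcn- sort, 9.19 CPM in lung and 4.78 CPM in MSC.

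**Figure D2:**
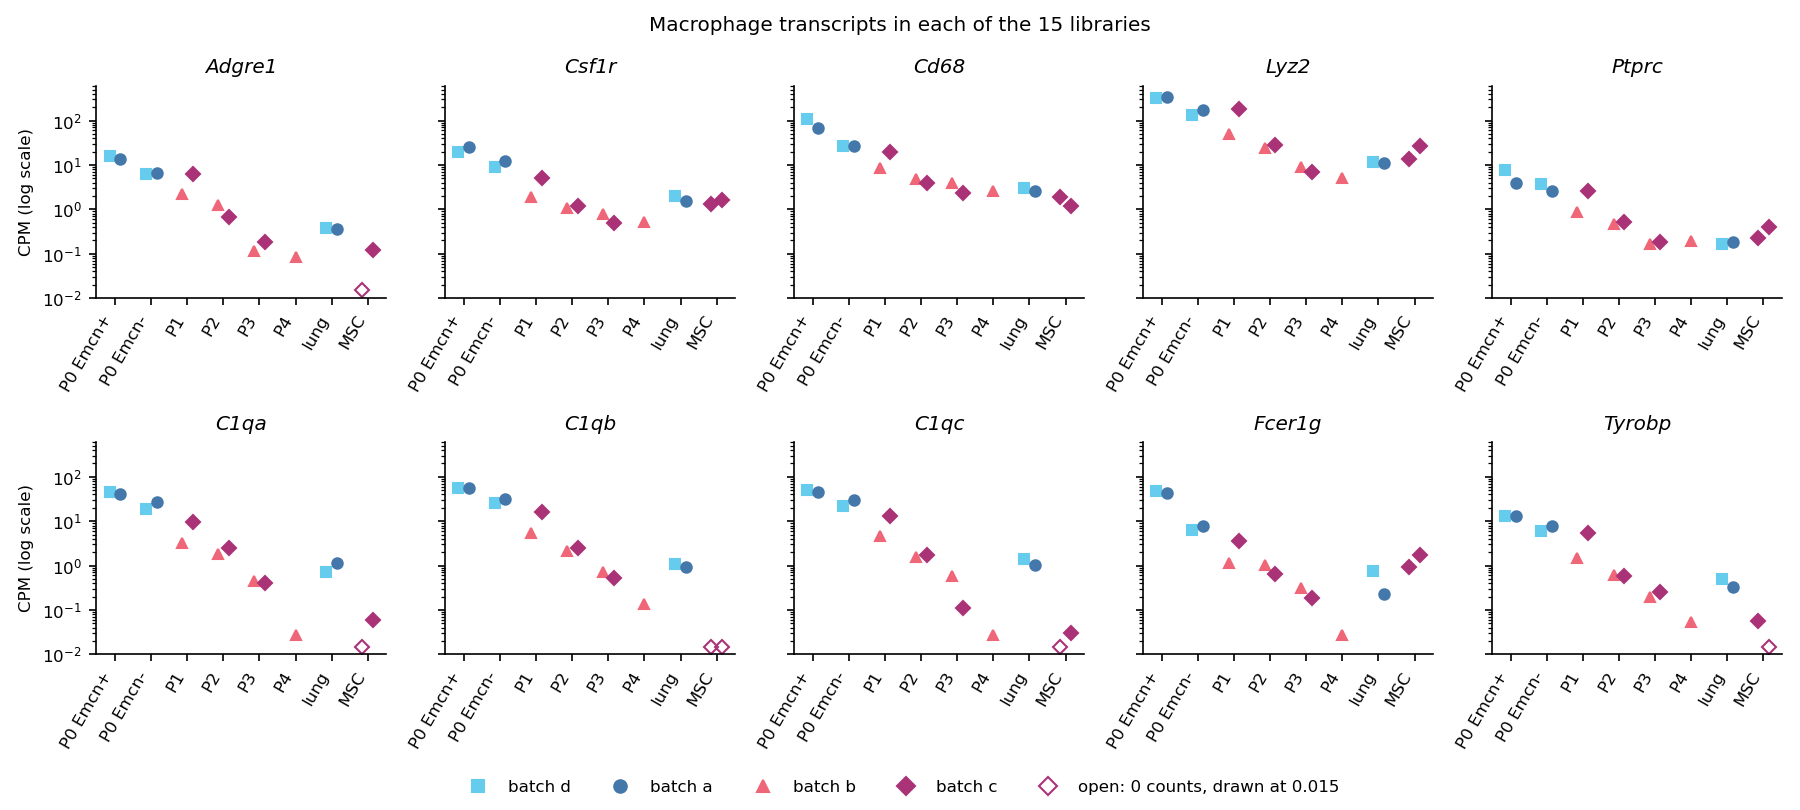
CPM (log scale) of each of the 10 genes in each library, with shape and colour for the batch and open symbols for libraries with 0 counts. The points of P0 Emcn+ lie above those of P0 Emcn- in each panel, and the C1q chains, Adgre1 and Tyrobp drop lowest in MSC and at P4.

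C1qa, C1qb and C1qc encode the 3 chains of C1q and lie next to each other on the minus strand of chromosome 4 (GENCODE M21 annotation of GRCm38), with C1qb at 136880129-136886187, C1qc at 136889804-136893065 and C1qa at 136895917-136898803. C1qb was at 57.2 and 55.0 CPM in the Emcn+ sort and at 25.8 and 30.9 CPM in the Emcn- sort. It was at 5.38 and 15.9 CPM at P1, 2.10 and 2.49 CPM at P2, 0.705 and 0.518 CPM at P3 and 0.137 CPM at P4. Lung cells had 1.10 and 0.922 CPM, and both MSC libraries had 0 counts, which allows up to 0.0842 and 0.0913 CPM. C1qa went from 46.6 and 41.9 CPM in the Emcn+ sort to 19.0 and 26.9 CPM in the Emcn- sort, and C1qc from 49.7 and 46.5 CPM to 22.3 and 30.7 CPM. Both ended at 1 count, or 0.0275 CPM, at P4. For each chain the libraries of P0 Emcn+, P0 Emcn-, P1 and P2 followed in this order without overlap, then came lung and P3.

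The 3 chains had similar proportions in the P0 libraries. Of the summed C1q counts, C1qa made up 28.4% to 30.4%, C1qb 34.9% to 38.4% and C1qc 32.4% to 34.7% in the 4 P0 libraries. At P1, C1qa was 24.2% and 24.3%. The RefSeq promoter table (GRCm38.p6) holds windows for 6 of the 10 genes, among them 2 chains of C1q. The 250 bases before the start of each are shown because C1qb was called over the passages and C1qc is its neighbour on chromosome 4, in the direction of the gene and in lower case. Capitals mark GAGGAA or its reverse complement TTCCTC, the core letters recognised by PU.1, the ETS factor of myeloid cells. The window of C1qb is chr4:136886201-136886450 and that of C1qc is chr4:136892915-136893164, both read from the minus strand.
C1qb: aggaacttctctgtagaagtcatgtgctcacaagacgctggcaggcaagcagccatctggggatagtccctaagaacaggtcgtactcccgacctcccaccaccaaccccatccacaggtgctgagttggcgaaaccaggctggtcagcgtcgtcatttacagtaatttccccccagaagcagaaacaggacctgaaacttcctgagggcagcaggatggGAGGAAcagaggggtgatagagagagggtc
C1qc: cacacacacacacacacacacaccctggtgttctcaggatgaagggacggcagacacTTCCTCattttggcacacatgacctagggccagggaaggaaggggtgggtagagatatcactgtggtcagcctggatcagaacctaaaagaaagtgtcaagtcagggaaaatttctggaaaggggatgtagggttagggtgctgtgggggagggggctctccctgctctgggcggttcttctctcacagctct
The motif begins 30 bases before the RefSeq start of C1qb on its sense strand and 193 bases before that of C1qc on the other strand. The RefSeq start of C1qc lies inside the gene as GENCODE M21 places it, so its window partly overlaps the gene. The motif occurs on either strand in 4 of the 7 windows of these 6 genes, and in 23.3% of the 32851 windows of the table. The 4 belong to C1qb, C1qc, Cd68 and Ptprc, and another window of Ptprc lacks it.

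Adgre1, Csf1r and Ptprc encode surface receptors. Adgre1 (chromosome 17, 57358691-57483527) encodes F4/80, the classical surface marker of mouse macrophages, and was at 15.6 and 13.8 CPM in the Emcn+ sort and at 6.37 and 6.46 CPM in the Emcn- sort. It was at 2.23 and 6.21 CPM at P1, 1.28 and 0.663 CPM at P2, 0.113 and 0.185 CPM at P3 and 0.0825 CPM, or 3 counts, at P4. Lung cells had 0.387 and 0.369 CPM, and MSC had 0 counts in replicate 1 and 0.122 CPM in replicate 2. Csf1r, the receptor for colony stimulating factor 1 and interleukin 34, lies on chromosome 18 and overlaps Hmgxb3 on the opposite strand, and whether counting used the strand is not given in the sources used here. Csf1r was at 19.96 and 25.04 CPM in the Emcn+ sort and at 9.16 and 12.4 CPM in the Emcn- sort. It stood at 1.90 and 5.13 CPM at P1 and 0.522 CPM at P4, and lung at 1.99 and 1.57 CPM overlapped with P1, while MSC at 1.29 and 1.64 CPM lay below both P1 libraries and overlapped with lung. Ptprc (chromosome 1, 138062861-138175708) was detected in each of the 15 libraries, with as few as 6 and 4 counts in lung. In the P0 and MSC sorts this was so although CD45 was used to leave cells out. It was at 7.73 and 4.02 CPM in the Emcn+ sort, at 3.75 and 2.62 CPM in the Emcn- sort and at 0.892 and 2.58 CPM at P1, and at 0.166 to 0.396 CPM in lung, MSC, P3 and P4.

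Fcer1g and Tyrobp encode the small adaptors FcRγ and DAP12, which carry the ITAM for Fc receptors and for receptors such as TREM2. Fcer1g (chromosome 1, 171229572-171234365) was at 48.0 and 43.8 CPM in the Emcn+ sort and at 6.47 and 7.87 CPM in the Emcn- sort. It was at 1.16 and 3.55 CPM at P1, 1.02 and 0.663 CPM at P2, 0.310 and 0.185 CPM at P3 and 0.0275 CPM at P4. In MSC Fcer1g was at 0.926 and 1.74 CPM, which overlapped with P1 and lay above both P3 libraries. Tyrobp (chromosome 7, 30413760-30417585) was at 13.0 and 12.9 CPM in the Emcn+ sort, at 6.04 and 7.67 CPM in the Emcn- sort and at 1.52 and 5.42 CPM at P1. It was at 0.613 and 0.597 CPM at P2 and 0.0550 CPM at P4, and MSC had 2 counts in replicate 1 and 0 in replicate 2. The pair therefore parted in MSC, where Fcer1g had 90 counts in total and Tyrobp 2.

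Cd68 and Lyz2 belong to digestion. Cd68 (chromosome 11, 69664213-69666153) encodes a lysosomal glycoprotein and was at 111 and 67.1 CPM in the Emcn+ sort and at 26.1 and 27.0 CPM in the Emcn- sort. It was at 8.36 and 19.98 CPM at P1, 4.90 and 3.91 CPM at P2, 3.98 and 2.29 CPM at P3 and 2.64 CPM at P4, while lung had 2.98 and 2.63 CPM and MSC 1.88 and 1.19 CPM. The P2 and P3 libraries of Cd68 overlapped, the P4 and lung libraries lay within the range of P3, and both P2 libraries lay above P4 and lung. Lyz2 (chromosome 10, 117277331-117282321) encodes lysozyme M and was at 322 and 334 CPM in the Emcn+ sort, at 133 and 171 CPM in the Emcn- sort and at 51.0 and 181 CPM at P1, where replicate 2 lay above both P0 Emcn- libraries. It was at 24.5 and 28.8 CPM at P2, 9.11 and 6.85 CPM at P3 and 5.20 CPM at P4. MSC had 13.9 and 26.7 CPM of Lyz2, which overlapped with P2 and exceeded lung at 11.5 and 10.8 CPM. Its near-identical neighbour Lyz1, 5476 bases away, held at most 12 counts in any library, and how the estimates divided shared reads between the pair was not tested.

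Per kilobase of the principal transcript in GENCODE M21, the order of the genes differed between the P0 sorts. In P0 Emcn- BMECs the mean level was 116 CPM per kb for Lyz2, 26.0 for C1qb, 22.1 for C1qa, 22.0 for C1qc and 21.6 for Cd68, followed by Tyrobp at 12.2 and Fcer1g at 10.6 CPM per kb. In P0 Emcn+ BMECs Lyz2 was at 249 CPM per kb, and Cd68 at 72.3 and Fcer1g at 68.1 CPM per kb stood above C1qb at 51.6 CPM per kb. Csf1r, Adgre1 and Ptprc were the lowest in both, at 2.29, 1.98 and 0.678 CPM per kb in the Emcn- sort.

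P0 Emcn+ was compared with P0 Emcn- to ask how the levels of the 10 transcripts differed across the Emcn gate. Fcer1g and Cd68 were higher in P0 Emcn+ BMECs. Fcer1g differed by a log2 fold change of 2.72 (SE 0.55, adjusted p = 0.00350) and Cd68 by 1.78 (SE 0.43, adjusted p = 0.00876) by the quasi-likelihood test of edgeR, Benjamini-Hochberg adjusted over all genes. Calls needed an adjusted p below 0.05 together with a log2 fold change beyond 1.5 in either direction. On these terms 2 of the 10 macrophage genes were called higher and 0 lower, against 7.79% of all genes tested called higher and 11.4% called lower. For the other 8 the fitted difference was 0.90 to 1.23 on the log2 scale with adjusted p of 0.0618 to 0.224, and their P0 Emcn+ libraries lay above their P0 Emcn- libraries in 8 of 8 as for Fcer1g and Cd68. Of all genes tested, 27.8% lay above in this way without overlap and 33.6% below. Within batch d the ratio of P0 Emcn+ to P0 Emcn- was 7.42 (95% counting interval 6.50 to 8.51) for Fcer1g, 4.25 (3.96 to 4.56) for Cd68 and 2.29 (2.18 to 2.40) for the summed C1q chains. Within batch a it was 5.57 (4.42 to 7.09), 2.48 (2.18 to 2.83) and 1.62 (1.51 to 1.75). Without replicate 1 of P0 Emcn+, Cd68 was no longer called (log2 fold change 1.38, adjusted p = 0.0657, edgeR). Endothelial genes moved with this contrast, 7 of 7 being called higher and none reading 0 in any library, and their part in the levels of Fcer1g and Cd68 was not tested.

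The windows before the start of Fcer1g (chr1:171234350-171234599) and Cd68 (chr11:69666171-69666420) are shown as these were the 2 genes called between the P0 sorts, from the minus strand and with the same motif in capitals.
Fcer1g: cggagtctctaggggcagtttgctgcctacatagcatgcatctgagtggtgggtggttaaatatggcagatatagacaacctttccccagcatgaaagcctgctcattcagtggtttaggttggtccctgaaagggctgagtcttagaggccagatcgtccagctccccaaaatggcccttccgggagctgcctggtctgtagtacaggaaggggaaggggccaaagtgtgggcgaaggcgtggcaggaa
Cd68: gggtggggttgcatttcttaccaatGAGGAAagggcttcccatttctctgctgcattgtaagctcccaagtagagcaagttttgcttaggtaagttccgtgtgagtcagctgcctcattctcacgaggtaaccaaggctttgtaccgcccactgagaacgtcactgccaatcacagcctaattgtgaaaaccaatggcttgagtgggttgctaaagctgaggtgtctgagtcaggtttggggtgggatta
The Cd68 window holds the motif 225 bases before the RefSeq start, and the letters do not occur in this window of Fcer1g. The Fcer1g window also overlaps the beginning of the gene as GENCODE M21 places it.

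Set against the C1q chains of the same library, Fcer1g was higher in both libraries of the Emcn+ sort than in both of the Emcn- sort, with intervals that did not overlap. There were 31.3 (95% interval 29.5 to 33.2) and 30.5 (28.5 to 32.6) Fcer1g counts per 100 C1q counts in P0 Emcn+, and 9.64 (8.45 to 10.96) and 8.89 (6.96 to 11.2) in P0 Emcn- BMECs. Cd68 had 72.1 and 46.8 per 100 in P0 Emcn+ and 38.8 and 30.6 in P0 Emcn-. Tyrobp was at 8.45 and 9.003 in P0 Emcn+ and 9.002 and 8.67 in P0 Emcn-, and Lyz2 at 210 and 233 against 199 and 194. The Fcer1g ratios of P1, 8.80 and 9.24, were close to those of P0 Emcn-. These ratios describe single libraries and no test was made of them.

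**Figure D3:**
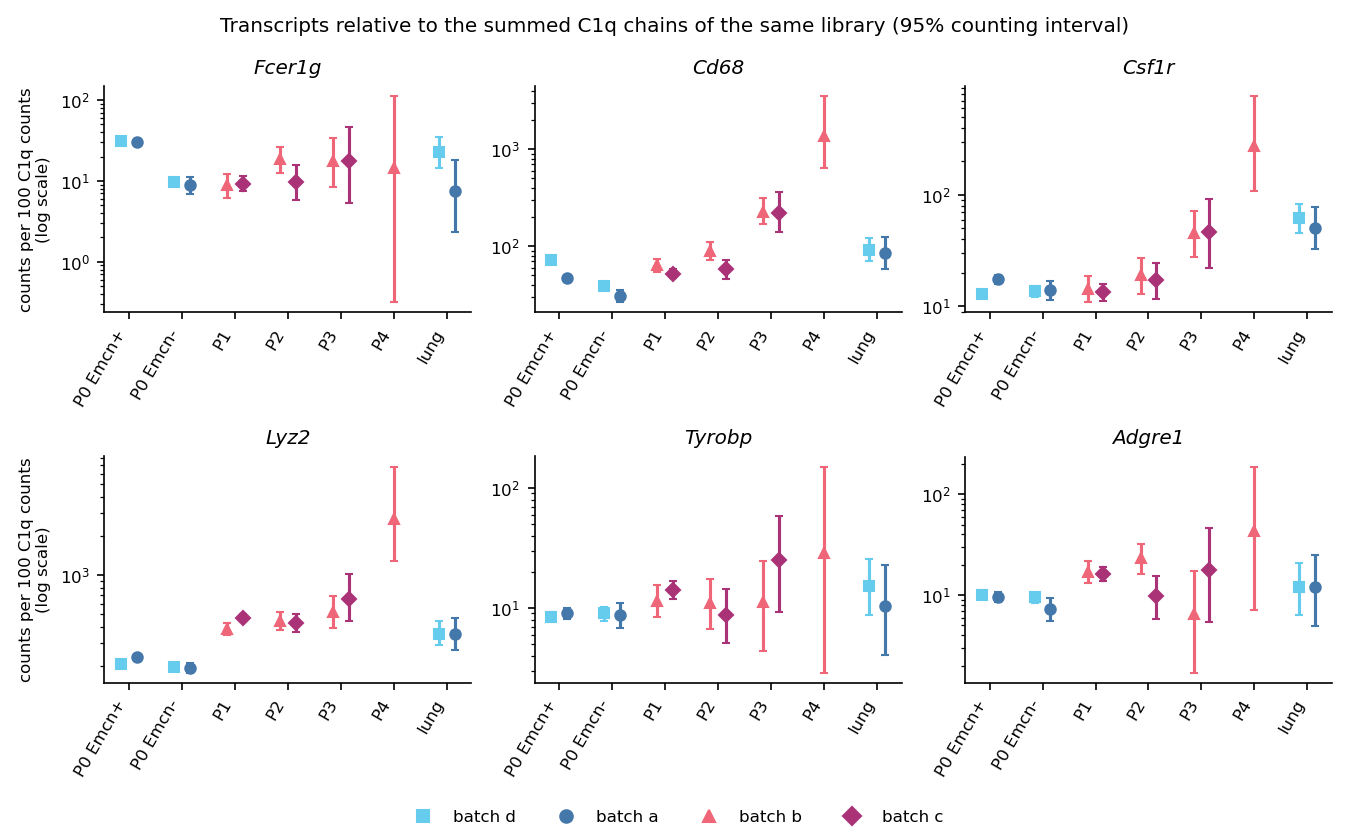
Counts of 6 genes per 100 summed C1q counts of the same library (log scale) with 95% counting intervals, by condition and batch, without MSC, which had 3 C1q counts. Fcer1g is at 31.3 and 30.5 in P0 Emcn+ against 9.64 and 8.89 in P0 Emcn-, and Cd68, Csf1r and Lyz2 are higher at P4 than at P1.

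Lung cells were compared with both P0 sorts to ask whether cells sorted from cultures of another organ held the 10 transcripts at similar levels. These libraries do not measure the macrophage RNA of the whole cultures. All 10 genes were lower in lung. Against P0 Emcn- BMECs 10 of 10 were called lower, with log2 fold changes from -2.51 for Csf1r to -4.72 for C1qb and adjusted p of 0.00164 to 0.0103 (edgeR), against 1.7% of all genes called lower and 2.13% called higher. Against P0 Emcn+ BMECs 10 of 10 were called lower, from -3.61 for Csf1r to -6.42 for Fcer1g with adjusted p of 3.73e-05 to 0.000313 (edgeR), against 8.48% called lower and 12.6% called higher. The medians were -3.97 and -5.12, beside 0 and 0.056 over all genes. The 2 comparisons share the lung libraries, and the P0 Emcn- libraries also serve the comparison of the P0 sorts and that with P1. The endothelial genes summed to 150 and 565 CPM in lung, and their part was not tested. Within batch d the sum over the 10 genes in P0 Emcn- was 12.01-fold that of lung and the C1q sum 20.8-fold, and within batch a 16.8-fold and 28.6-fold. In a fit of the compared groups alone, 7 of 10 were called against P0 Emcn-, where Csf1r, Ptprc and Fcer1g were not (adjusted p = 0.0561 to 0.0887, edgeR), and without either lung library Adgre1 and Csf1r were not (adjusted p = 0.0515 to 0.0698, edgeR). In lung, Csf1r was at 61.5 and 50.7 and Lyz2 at 356 and 351 per 100 C1q counts, above the 13.0 to 17.5 and 194 to 233 of the P0 libraries.

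P1 was compared with P0 Emcn- to follow the first passage, where no batch is shared. C1qa was called lower, with a log2 fold change of -1.72 (SE 0.47, adjusted p = 0.0334, edgeR). The count was 1 of 10 lower and 0 higher, against 3.07% of all genes called lower and 5.77% called higher. The other 9 had fitted differences of -0.25 for Lyz2 to -1.47 for Csf1r, and the median of the 10 was -1.05, beside 0.019 over all genes. Csf1r passed on its adjusted p of 0.0388 but not on the fold change, and with the replicate block it was called as well (-1.52, adjusted p = 0.0376, edgeR). The 2 P1 libraries lay far apart, the batch c library being 2.39-fold (Cd68) to 3.57-fold (Tyrobp) higher in the 10 genes. When single libraries were left out, genes called in all at P1 changed as well, and their range is given in the closing section. The counts of the 10 without single libraries are not set beside a share of all genes. Without P1 replicate 2, 4 genes were called lower (C1qa, C1qb, Csf1r and Fcer1g). Without P1 replicate 1 there were 0 (edgeR, C1qa at adjusted p = 0.170), and the fitted differences of Adgre1 and Lyz2 were positive at 0.087 and 0.39. C1qa was also not called without P0 Emcn- replicate 1 or replicate 2 (adjusted p = 0.0604 and 0.0795) or in a fit of the compared groups alone (adjusted p = 0.120, all edgeR).

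Over passages P1 to P4 all 10 macrophage transcripts were lower at the last passage than at P1 within both batches. In batch b each of the 10 was lower at P2 than at P1 and at P3 than at P2, and 9 of 10 were lower at P4 than at P3. The exception was Ptprc with 6 counts at P3 and 7 at P4. In batch c the count was 10 of 10 at both steps. Of all genes tested, 56.3%, 49% and 48.1% were lower at the successive steps of batch b and 58.2% and 43.5% at those of batch c, and 52.6% were lower at P4 than at P1 in batch b and 52.7% at P3 than at P1 in batch c. The sum was 2.04-fold, 2.40-fold and 1.84-fold lower from step to step in batch b, and 6.09-fold and 3.76-fold in batch c. These steps rest on 1 library each.

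The difference was unequal among the genes. In batch b the summed C1q chains were 68.5-fold lower at P4 than at P1 (95% counting interval 33.0 to 171) and Adgre1 27.0-fold (8.91 to 134). Lyz2 was 9.82-fold lower (8.44 to 11.5), Csf1r 3.64-fold (2.16 to 6.44) and Cd68 3.17-fold (2.50 to 4.04). Between P1 and P3 in batch c the C1q chains differed 37.1-fold (25.5 to 56.1), Adgre1 33.5-fold (14.1 to 105), Lyz2 26.5-fold (22.9 to 30.9), Csf1r 10.7-fold (6.04 to 20.5) and Cd68 8.71-fold (6.69 to 11.5). In both batches Cd68 and Csf1r differed least among these. Per 100 C1q counts, Cd68 went from 63.4 and 52.0 at P1 to 227 and 221 at P3 and 1371 at P4, and Csf1r from 14.4 and 13.3 to 45.2 and 46.4 at P3. At P4 the denominator was 7 C1q counts.

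**Figure D4:**
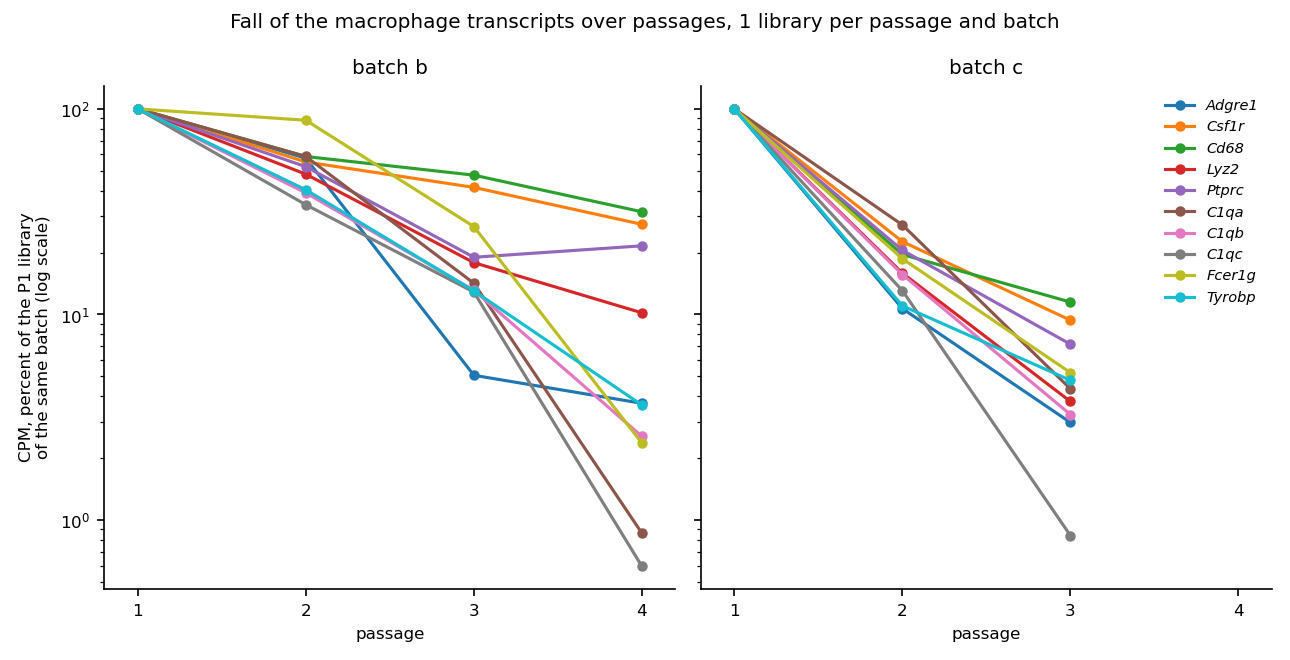
CPM of each of the 10 genes as a percent of the P1 library of the same batch (log scale) against passage, with 1 library per point. Batch b runs to P4 and batch c to P3, and Cd68 and Csf1r lie highest at the last passage of both.

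The linear change over P1 to P4 was fitted with the batch as a replicate block and scaled to the change from P1 to P4. C1qa (-7.05, SE 0.88, adjusted p = 0.0303) and C1qb (-5.72, SE 0.70, adjusted p = 0.0378) were called lower in edgeR's quasi-likelihood test. The count was 2 of 10 lower and 0 higher, against 0.0515% of all genes called lower and 0.155% called higher. The other 8 had fitted changes of -2.23 for Cd68 to -7.68 for C1qc on the log2 scale, with adjusted p of 0.0576 to 0.182 (edgeR). The median of the 10 was -5.34, beside 4.51e-15 over all genes. Genes called in all also changed with the setting, and their range without single libraries is given in the closing section. The counts of the 10 that follow are not set beside a share of all genes for each setting. A fit of the passaged libraries alone called 10 of 10 lower among 759 genes (240 lower), DESeq2's Wald test called 10 of 10 lower among 320 genes (121 lower), and edgeR without the block called 5. Without the P4 library 7 were called. Without P1 replicate 2 only C1qb was, and 0 were without P1 replicate 1 or either library of P2 or P3.

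MSC were compared with the mean of P1 to P3 as stromal cells grown without the endothelial reporter. The macrophage transcripts split. The 3 C1q chains, Tyrobp, Adgre1 and Cd68 were called lower in MSC, and Csf1r, Fcer1g, Lyz2 and Ptprc were not called. That made 6 of 10 lower and 0 higher, against 5.81% of all genes called lower and 8.42% called higher. The 6 P1 to P3 libraries held 810 C1qb counts against 0 in MSC, at least 98.1-fold more at equal depth taking 3 counts over both MSC libraries for the 0. The ratio was 97.4 (95% counting interval 26.8 to 806) for C1qa and 46.3 (12.7 to 385) for Tyrobp, each against 2 MSC counts, and 29.2 (11.3 to 108) for Adgre1. Cd68 differed by -2.01 (SE 0.41, adjusted p = 0.00442, edgeR) and was not called without MSC replicate 2 (-1.69, adjusted p = 0.0547). For Csf1r the difference was 0.018 (SE 0.34, adjusted p = 0.986) (-0.16 with the replicate block, and negative too without MSC replicate 2, P1 replicate 1 or P3 replicate 2), for Fcer1g 0.64 (SE 0.46, adjusted p = 0.332), for Lyz2 -0.62 (SE 0.40, adjusted p = 0.268) and for Ptprc -0.88 (SE 0.49, adjusted p = 0.205), all by edgeR. With 3 C1q counts in both MSC libraries together there were 1373 Lyz2, 106 Cd68, 100 Csf1r and 90 Fcer1g counts. The endothelial genes summed to 35.2 and 324 CPM in MSC, and their part was not tested. Both MSC libraries share batch c with replicate 2 of P1 to P3, and the block changed none of the 10 calls.

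**Figure D5:**
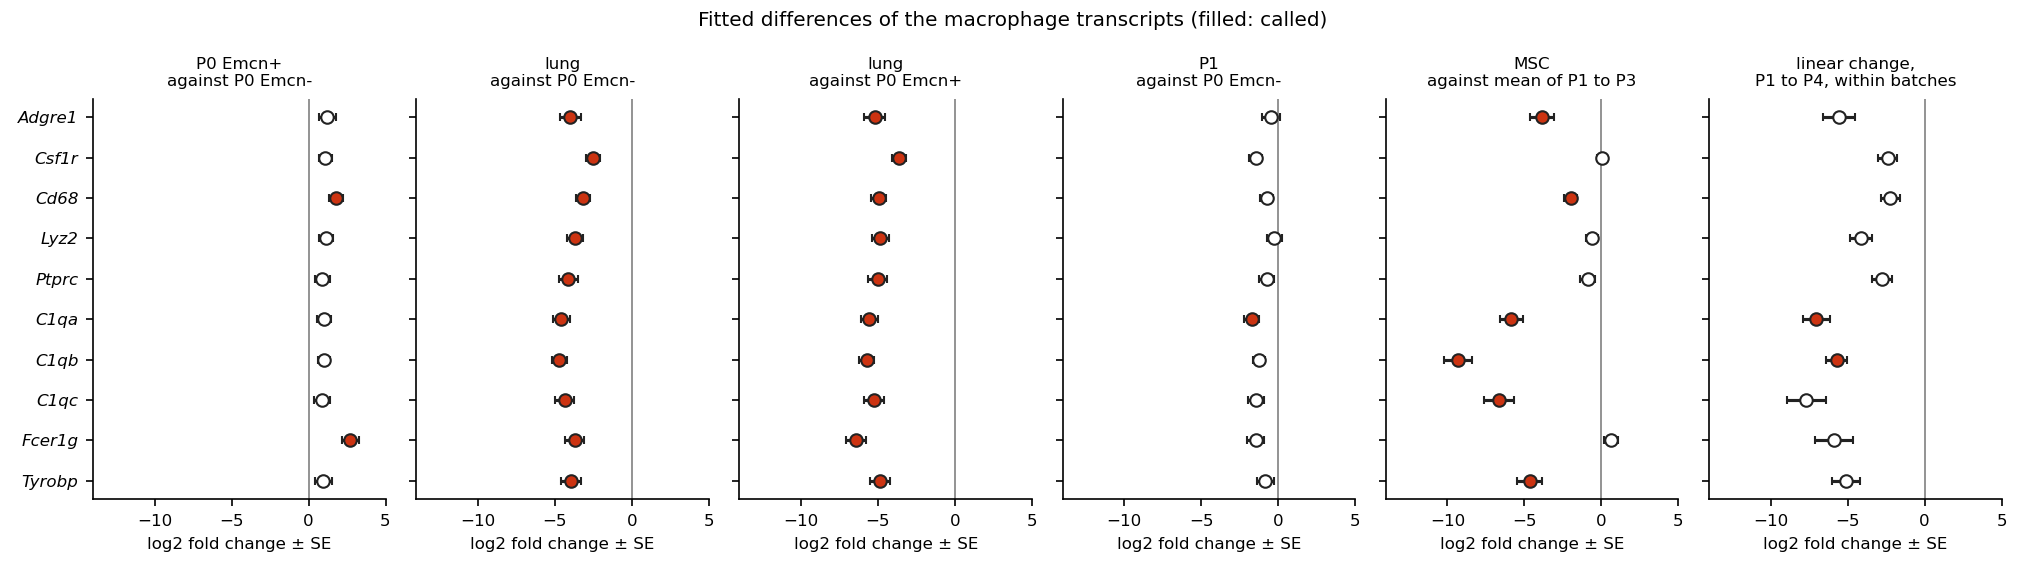
Fitted log2 fold change ± SE (horizontal axis) of the 10 genes in 6 comparisons, filled where the gene was called. All 10 are filled in both lung comparisons, 6 in MSC and 2 in P0 Emcn+ against P0 Emcn-, and the C1qb value in MSC depends on the prior count of the fit since both libraries were at 0.

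Other genes of macrophages were described by a list of 20, of which 17 were tested. Against P0 Emcn-, 9 of 17 were called lower in lung and 3 of 17 higher in P0 Emcn+, the last being Mrc1, Mertk and Cd14. Against the passages, 9 of 17 were called lower in MSC, and against P0 Emcn+ 13 of 17 were called lower in lung. At P1 0 of 17 were called by edgeR or DESeq2, 3 having an unadjusted p under 0.05 in edgeR, with a median fitted difference of -0.61 beside 0.019 over all genes. The median over the list was 1.07 in P0 Emcn+ against P0 Emcn-, beside -0.057 over all genes, and 1.06 over the 10 macrophage transcripts. Mrc1, the mannose receptor that sinusoidal endothelium also makes, was at 396 and 237 CPM in the Emcn+ sort and at 40.9 and 29.0 CPM in the Emcn- sort (log2 fold change 3.21, SE 0.43, adjusted p = 0.000302, edgeR). Over the passages it was the 1 gene of the list called by edgeR (-4.00, SE 0.53, adjusted p = 0.0372), and DESeq2 called 10 of the list lower. Lgmn, a lysosomal protease, did not follow the 10 genes, with 341 and 325 CPM in the Emcn+ sort, 456 and 288 CPM in the Emcn- sort and 225 CPM at P4.

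Partners of the ITAM adaptors were followed in a list of 14, with 11 tested. In P0 Emcn+ 4 of 11 were called higher than in P0 Emcn-. They were the kinases Syk and Lyn, the phosphatase Inpp5d (SHIP1) and the phospholipase Plcg2, which take part in signalling by the adaptors. Syk was at 149 and 124 CPM in the Emcn+ sort against 12.9 and 18.7 CPM in the Emcn- sort (log2 fold change 3.16, SE 0.24, adjusted p = 8.7e-06, edgeR), and was not called over the passages (1.03, SE 0.25, adjusted p = 0.146, edgeR). Inpp5d was at 148 and 127 CPM against 8.36 and 5.85 CPM. Of the surface partners, Fcgr3, an Fc receptor that needs the product of Fcer1g, had 24.0 and 17.4 CPM in the Emcn+ sort and 10.1 and 9.78 CPM in the Emcn- sort, and was the 1 gene of the list called over the passages (-5.84, SE 0.65, adjusted p = 0.027, edgeR). The median of the list was 1.48 between the P0 sorts. In lung 11 of 11 were called lower than in P0 Emcn+ and 1 of 11, Fcgr3, than in P0 Emcn-.

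A list of 13 general leukocyte genes, 12 tested, gave 4 of 12 higher in the Emcn+ sort than in the Emcn- sort (Lcp1, Laptm5, Arhgdib and Was) and 6 of 12 lower in lung than in P0 Emcn-. Lcp1 (L-plastin) was at 578 and 370 CPM in the Emcn+ sort and at 29.4 and 13.8 CPM in the Emcn- sort (log2 fold change 4.47, SE 0.74, adjusted p = 0.00111, edgeR). Laptm5, a lysosomal membrane protein of blood cells, was at 124 and 74.8 CPM against 22.1 and 21.4 CPM (2.22, SE 0.60, adjusted p = 0.0164, edgeR). Arhgdib went against the list in lung, being called higher than in P0 Emcn- (1.97, SE 0.38, adjusted p = 0.0162, edgeR), and stood at 105 to 123 CPM at P3 and P4. Over the passages 0 of 12 were called by edgeR and 3 lower by DESeq2, with 6 lower and 1 higher at an unadjusted p under 0.05 in edgeR.

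Ligands of Csf1r and related cytokines and receptors made up a list of 7. Between the P0 sorts Csf2rb and Csf2 were called higher in P0 Emcn+, and Csf1 and Il34 lower. Csf1, the growth factor of macrophages, was at 977 and 1246 CPM in the Emcn- sort, at 1009 and 891 CPM at P1 and at 1658 CPM at P4. In P0 Emcn+ it was lower, at 183 and 528 CPM (log2 fold change -1.61, SE 0.45, adjusted p = 0.0193, edgeR). Il34, the second ligand, was at 3.17 and 6.38 CPM in the Emcn+ sort, 13.6 and 24.5 CPM in the Emcn- sort and 58.7 CPM at P4. Over the passages 0 of the 7 genes of this list were called by edgeR or DESeq2, with 1 higher at an unadjusted p under 0.05 in edgeR, and the fitted difference of Csf1 was 0.79 (SE 0.42, adjusted p = 0.464, edgeR). Csf2rb, the common beta chain of the receptors for granulocyte-macrophage colony stimulating factor and related cytokines, was at 129 and 77.1 CPM in the Emcn+ sort and at 4.41 and 0.605 CPM in the Emcn- sort.

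Other components and receptors of the complement cascade were listed beside the C1q chains. Of 12 complement genes 9 were called lower and 1 higher in the Emcn+ sort than in the Emcn- sort, with a median of -4.79, and the 1 was the receptor C5ar1. C3, the central component of the cascade, was at 17.5 and 59.9 CPM in the Emcn+ sort and at 2011 and 7353 CPM in the Emcn- sort. C1s1, a protease of the C1 complex, was at 8.52 and 16.9 CPM against 712 and 1603 CPM. At P4 C3 was still at 1042 CPM and C1s1 at 854 CPM, where C1qa and C1qc had 1 count each, and over the passages 0 of 12 were called by edgeR and 1 lower by DESeq2, with 5 lower at an unadjusted p under 0.05 in edgeR. In MSC 8 of 12 were called lower than in P1 to P3.

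Of 12 lysosomal genes, 0 were called in lung against P0 Emcn- by edgeR or DESeq2, with 2 higher and 0 lower at an unadjusted p under 0.05 in edgeR. Over the passages 0 were called by either tool, with 2 lower at an unadjusted p under 0.05. In edgeR 1 of 12 was called lower in P0 Emcn+ than in P0 Emcn-, against 11.4% of all genes. In lung 1 was called higher than in P0 Emcn+, against 12.6%, and in MSC 1 was called lower than in P1 to P3, against 5.81%. On the adjusted p alone, 8 of 12 were lower in MSC, and between the P0 sorts 2 were higher and 1 lower in P0 Emcn+. Psap, the precursor of the saposins, was at 2137 and 1789 CPM in the Emcn+ sort, 2099 and 1930 CPM in the Emcn- sort and 1694 CPM at P4, and Ctsb, a cathepsin, at 3704 and 2096 CPM, 1813 and 1152 CPM and 901 CPM.

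The 10 genes outside the set whose pattern was most like it were found from Pearson's r, over the 15 libraries, between a gene's log2(CPM + 0.5) and the mean of the 10 genes on that scale. They were Dock2 (r = 0.997), Ms4a4a, Fcgr3, Ncf1, Cybb, ENSMUSG00000089672, Adam8, Cd163, Laptm5 and Ms4a6c (r = 0.990). Dock2 is a guanine exchange factor of leukocytes, and Ncf1 and Cybb encode subunits of the phagocyte NADPH oxidase. Dock2 was at 9.79 and 7.61 CPM in the Emcn+ sort, 4.00 and 4.14 CPM in the Emcn- sort, 0.863 and 2.51 CPM at P1 and had 0 counts at P4. Cybb was at 14.8 and 14.6 CPM in the Emcn+ sort, 6.87 and 6.76 CPM in the Emcn- sort and 0.165 CPM at P4. The members themselves had r of 0.939 for Fcer1g to 0.994 with their own mean, which includes them. Libraries of 1 condition and 1 batch are not independent points, so these values only describe likeness. With Spearman's rho, 4 of the 10 remained among the top 10.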

How the data were processed

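Bulk RNA of 15 mouse libraries was analysed from 1 table of gene counts. The authors deposited these counts as whole numbers per gene. By the study's methods the authors trimmed the reads, aligned them with STAR to GRCm38, quantified them with Salmon on Ensembl transcripts and summed them to genes. How the estimates were rounded, and whether strand was used, is not given in the sources used here. Such estimates can divide reads between near-identical or overlapping genes. Groups and batches came from the sample labels.

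CPM are counts per 1000000 of the library total. Tests across genes used edgeR 4.0.16 (quasi-likelihood, TMM factors of 0.925 to 1.09, filterByExpr with a minimum count of 10 and a minimum total of 15) in R 4.3.3. All 15 libraries entered, with 1 coefficient per condition, and p-values were Benjamini-Hochberg adjusted over 19401 genes. Each SE given with an edgeR log2 fold change was derived, as its absolute value divided by the square root of the quasi-likelihood F statistic. The trend over P1 to P4 also had the batch as replicate block. Differences of replicates correlated at 0.354 to 0.451 between passages of the same batches and at 0.139 to 0.209 between P0 and lung groups. Between groups that share no batch the correlation was 0.000519 to 0.127, close below the P0 and lung values. On these values the batch labels were taken to pair libraries, with a small margin for P0 and lung. The study states that each condition was sequenced from independent biological samples, cultures being independent where they began with another animal, but no source ties a library to its animal. Replicates of each group differed by more than counting noise. Intervals of ratios are exact binomial at 95% and cover counting error only. The fits were tested on simulated counts. DESeq2 1.42.0, other factors and filters, the block, the compared groups alone and leaving out each library were tried as alternatives.

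The 10 genes and all other lists were chosen with earlier results of these data known. The text names the 4 genes of a list with the highest mean CPM, the 10 genes most like the set, 3 endothelial markers, and genes that make up a count of 5 or fewer, the last named after their values were seen. The share of counts in 8 rows without a symbol was at most 0.00378% of a library. A list of transcription factors of myeloid cells is not reported here.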

Additional observations from a re-analysis of the deposited data

How the results depend on the processing

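Of 730 fitted differences of the 10 genes under alternatives, 670 kept their call and direction, 24 lost a call, 30 gained one and 6 changed sign. The changes of sign were Adgre1 and Lyz2 at P1, which ranged from -1.34 to 0.087 and from -1.40 to 0.39 when single libraries were left out, and Csf1r in MSC at -0.16 with the replicate block, -0.13 without MSC replicate 2, -0.16 without P1 replicate 1 and -0.090 without P3 replicate 2, within -0.16 to 0.30. The number of the 10 genes called ranged from 1 to 2 between the P0 sorts, 0 to 4 at P1 and 0 to 7 over the passages when single libraries were left out. At P1 it was 2 with the adjusted p alone, 2 with the replicate block and 0 with the compared groups alone. Over the passages it was 10 with DESeq2, 10 with the compared groups alone and 5 with no replicate block, which added C1qc, Tyrobp and Lyz2. Beside these and Csf1r at P1, pairing by batch changed no call among the 10 genes. Genes called in all numbered 6609 between the P0 sorts, 7209 in lung against P0 Emcn+, 3387 at P1 and 6206 in MSC with the adjusted p alone. With the compared groups alone they numbered 145 in lung against P0 Emcn-, 968 at P1 and 759 over the passages (519 higher), where DESeq2 called 320 (199 higher) and 68 were called with no filter. Without single libraries they ranged from 406 to 675 in lung against P0 Emcn-, 805 to 2196 at P1 and 0 to 138 over the passages. The cause of these changes was not tested. Mean summed levels were 631 CPM in P0 Emcn+ and 44.0 CPM at P2 on TMM-scaled library sizes, and without Lyz2 they were 339, 139, 9.19, 4.78, 14.6, 5.97 and 3.71 CPM in P0 Emcn+, P0 Emcn-, lung, MSC, P2, P3 and P4. Of the 10 most alike genes 4 remained with Spearman's rho. A level below 0.0755 to 0.303 CPM, depending on the library, could not be told from 0, which limits C1qa, C1qc, Tyrobp, Fcer1g and Adgre1 at P4, C1qc in P3 replicate 2, the C1q chains and Tyrobp in MSC and Adgre1 in MSC replicate 1.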

Other observations

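Genes of alveolar macrophages, the resident phagocytes of lung airspaces, were followed in a list of 8, of which 6 were tested. Against P0 Emcn- 1 of 6 was called higher in lung, Ear2, an eosinophil-associated ribonuclease, with 8.34 and 5.03 CPM in lung and 1.33 and 1.11 CPM in the Emcn- sort (log2 fold change 2.50, SE 0.39, adjusted p = 0.00852, edgeR). Ear2 had 0 counts in both P0 Emcn+ libraries, where the 10 macrophage transcripts were highest. Chil3, a chitinase-like protein of these cells, was at 12.3 and 3.55 CPM in lung, 5.21 and 28.3 CPM at P1, 0.0275 CPM at P4 and 0 in both MSC libraries, and Marco, a scavenger receptor, at 2.26 and 6.28 CPM at P1 and 0 in MSC. In MSC 4 of 6 were called lower than in P1 to P3, namely Pparg, Car4, Marco and Chil3.

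Osteoclasts, which resorb bone, descend from the same precursors as macrophages, and 5 of 7 genes listed for them were tested. Mmp9, a gelatinase, was at 10.9 and 5.55 CPM in P0 Emcn- BMECs and at 0.666 and 0.425 CPM in the Emcn+ sort (log2 fold change -3.87, SE 0.84, adjusted p = 0.00515, edgeR), the opposite direction to the macrophage transcripts. At P1 it stood at 0.0298 and 0.0359 CPM, 1 count in each library. Ctsk, cathepsin K, which stromal cells also make, was at 282.5 and 137 CPM in P0 Emcn- against 5.17 and 9.39 CPM in P0 Emcn+ (-4.82, SE 0.47, adjusted p = 4.24e-05, edgeR) and was still at 188 CPM at P4.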
